A study of Mus musculus with 12 samples.

Results

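The phase II conjugation enzymes of mouse liver were followed as 62 protein-coding genes of the 22557 genes in the deposited table. They were the genes whose symbols name a glutathione S-transferase (Gst or Mgst, 24 genes), a UDP-glucuronosyltransferase (Ugt, 21 genes) or a cytosolic sulfotransferase (Sult, 17 genes). The study sequenced RNA from whole livers, all cell types together, of female mice, with 3 livers from different mice in each of 4 groups. KO tumour-bearing mice carried the Mtdh knockout and an allograft mammary tumour of Py8119 cells, a mouse mammary tumour line, and WT tumour-bearing mice were wild type with the same allograft. KO tumour-free and WT tumour-free mice were age-matched animals of each genotype without a tumour. How the knockout was made, the strain background and the ages are not stated in the labels used here, and the tumour came from 1 cell line.

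Conjugating enzymes attach a polar group to drugs, hormones, bile acids and reactive lipids, so that these leave the cell more readily. Glutathione transferases add glutathione to electrophiles, glucuronosyltransferases add glucuronic acid from UDP-glucuronate in the endoplasmic reticulum, and sulfotransferases add sulfate from the donor PAPS in the cytosol. Liver is a main site of these reactions, and in mice many of the genes sit in clusters of close paralogs and differ between the sexes.

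Promoter sequence was available in RefSeq for 54 of the 62 genes. It was the 250 bases before the annotated start in build GRCm38.p6, which is not the mm39 build of the expression table. Sult2a1, Sult2a2, Sult2a7 and Sult4a1 had none matched. The sulfotransferase shares therefore leave out Sult2a1, which passed tests of tumour against none, and the abundant Sult2a2. A search on both strands for GTTAAT, a core of the site bound by the hepatocyte factor HNF1, found it in 46.2% of the sulfotransferase promoters (6 of 13), 31.6% of the glucuronosyltransferase promoters (6 of 19) and 4.5% of the glutathione transferase promoters (1 of 22), against 6.5% of all 27025 promoters. The antioxidant response element core TGACNNNGC was found in 13.6% of the glutathione transferase promoters, in Gsta3, Gstm5 and Mgst1, and in no promoter of the other 2 families, against 10.1% of all promoters. TTCNNNGAA, bound by STAT factors, was in 5.6% of the members' promoters and 7.1% of all promoters, GCGTG, the xenobiotic response element core, in 16.7% and 28.3%, and TATAAA in 16.7% and 13.0%. The sulfotransferases with GTTAAT included Sult2a3, Sult2a4 and Sult2a5, paralogs on chromosome 7. These matches describe letters in a window and are not evidence of binding. The sequences shown are those of Sult2a8 and Ugt2b37, which passed a test of tumour against none, of Sult2a3 and Sult2a5, which like Ugt2a3 and Ugt1a10 held a pair of GTTAAT matches, and of the most abundant glutathione transferases with a match, Gsta3 and Mgst1. They run 5′ to 3′ on the gene's strand, with GTTAAT or its reverse complement in capitals in the Sult and Ugt promoters and TGACNNNGC or its reverse complement in Gsta3 and Mgst1. They lie at chr7:14446588-14446837, minus strand (Sult2a8), chr7:14123049-14123298, minus strand (Sult2a3), chr7:13623717-13623966, plus strand (Sult2a5), chr5:87254789-87255038, minus strand (Ugt2b37), chr1:21240335-21240584, plus strand (Gsta3) and chr6:138140277-138140526, plus strand (Mgst1).
Sult2a8: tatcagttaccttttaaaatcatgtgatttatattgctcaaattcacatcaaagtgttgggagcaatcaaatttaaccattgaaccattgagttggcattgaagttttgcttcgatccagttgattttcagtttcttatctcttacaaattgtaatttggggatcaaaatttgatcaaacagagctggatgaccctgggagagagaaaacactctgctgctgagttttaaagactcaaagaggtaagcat
Sult2a3: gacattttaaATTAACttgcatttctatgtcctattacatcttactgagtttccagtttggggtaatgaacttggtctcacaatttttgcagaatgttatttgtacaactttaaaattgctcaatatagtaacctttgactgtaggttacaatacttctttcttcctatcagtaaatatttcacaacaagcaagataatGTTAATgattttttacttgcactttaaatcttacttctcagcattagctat
Sult2a5: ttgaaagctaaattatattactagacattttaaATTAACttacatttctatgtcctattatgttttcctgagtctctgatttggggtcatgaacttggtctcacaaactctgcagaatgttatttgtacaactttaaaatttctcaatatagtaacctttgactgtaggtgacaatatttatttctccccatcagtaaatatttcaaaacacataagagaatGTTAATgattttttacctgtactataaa
Ugt2b37: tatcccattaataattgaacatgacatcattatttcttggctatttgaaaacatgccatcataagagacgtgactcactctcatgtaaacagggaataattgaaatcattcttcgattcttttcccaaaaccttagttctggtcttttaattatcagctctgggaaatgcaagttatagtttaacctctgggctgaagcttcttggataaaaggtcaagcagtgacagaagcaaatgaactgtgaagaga
Gsta3: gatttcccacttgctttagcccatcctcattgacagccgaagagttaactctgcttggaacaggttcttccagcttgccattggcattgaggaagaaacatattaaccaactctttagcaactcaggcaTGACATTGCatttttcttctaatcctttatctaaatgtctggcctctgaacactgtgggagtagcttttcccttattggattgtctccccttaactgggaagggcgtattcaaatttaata
Mgst1: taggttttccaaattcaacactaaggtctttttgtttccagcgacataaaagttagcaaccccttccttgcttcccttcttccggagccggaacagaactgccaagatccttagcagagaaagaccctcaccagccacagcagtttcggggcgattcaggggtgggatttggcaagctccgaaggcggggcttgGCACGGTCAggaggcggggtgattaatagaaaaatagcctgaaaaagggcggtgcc
The Sult2a3 and Sult2a5 promoters each held 2 GTTAAT matches. Relative to the start they began at −240 and −51 in Sult2a3 and at −217 and −28 in Sult2a5. The Sult2a8 and Ugt2b37 windows held none. Windows were set by the RefSeq start, which was not compared with the gene ends of the expression table. The Sult2a8 window may lie partly inside the gene as that table lists it, and sequence further upstream was not searched.

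Values are the authors' normalized signal, named as DESeq2-normalized and not log-transformed. The estimated depth was 12700000 reads in KO tumour-bearing replicate 1 and between 25700000 and 43000000 in the other 11 libraries. KO tumour-bearing replicate 1 also listed the fewest genes above 0 (14899) and had the lowest mean correlation with the other libraries (0.831). KO tumour-free replicate 3 had 4.84% of its signal from snoRNA genes and 5.32% from snRNA genes. Mtdh (ENSMUSG00000022255, chromosome 15, 34082840 to 34145770) was listed at 1063, 380.0 and 323 in KO tumour-bearing livers, against 5290.2, 3954 and 5702 in WT tumour-bearing livers, and at 584, 436 and 627 in KO tumour-free livers, against 4329.6, 5375 and 4973 in WT tumour-free livers. All 6 KO libraries lay below all 6 WT libraries, as their labels state, with the highest KO value in replicate 1 of the tumour-bearing group. The 7 hepatocyte markers, all detected, summed to between 2871838 and 4814391 in KO tumour-bearing, 3600122 and 4051329 in WT tumour-bearing, 2661343 and 3148129.9 in KO tumour-free and 2581921 and 2890972 in WT tumour-free livers. All WT tumour-bearing livers lay above all WT tumour-free livers in this sum. The median log2 change of the 7 markers between these 2 groups was 0.06, with 5 positive, and none passed the test. The part of the hepatocyte sum in the conjugation values was not tested.

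Of the 62 genes, 56 reached a value of 10 in at least 3 libraries and were tested with limma on log2(value + 1), together with all 17380 genes that did so. The other 6, Gsto2, Mgst2, Ugt2a1, Ugt2a2, Sult2b1 and Sult4a1, stayed near 0 in most libraries. A fold change on this scale understates the change of low genes, and the p-values are adjusted over all genes tested by the Benjamini-Hochberg method. The value after ± on a log2 change or difference is its standard error in the limma fit. Counts over the tested members describe those members alone, since a gene high in 1 group could pass the filter through that group.

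Per kilobase of transcript, a few genes held most of each family's signal. Mgst1, a membrane-bound glutathione transferase, averaged 36614 per kb over the 12 livers and made up 49.1% of the glutathione family's sum, and with Gstm1, Gsta3 and Gstp1 it made up 84.0%. Among glucuronosyltransferases, Ugt2b5 averaged 24347 per kb (36.1%), and with Ugt3a2, Ugt2b36 and Ugt2b1 it made up 71.0%. Among sulfotransferases, Sult2a1 averaged 6365 per kb (25.8%), and with Sult2a2, Sult2a8 and Sult1d1 it made up 79.5%. The leading sulfotransferase differed by group, being Sult2a2 in KO tumour-bearing livers (6519 per kb), Sult1d1 in WT tumour-bearing livers (3513), Sult2a8 in KO tumour-free livers (8949) and Sult2a1 in WT tumour-free livers (11019), whereas Mgst1 and Ugt2b5 led their families in all 4 groups. Some of these levels are uncertain, because reads of near-identical genes cannot be assigned with confidence. Of all 50-base words in their transcripts, 54.2% to 96.0% were shared with another member among the Ugt1a genes, which share their 3′ exons, 62.1% in Sult2a2, 29.6% in Sult2a1, 51.0% in Gstp1 and 41.7% in Ugt2b5. Sult2a8, Gsta3, Gsta4, Gstt1, Gstt3, Gstp3, Mgst1 and Sult1c2 shared none.

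Sulfotransferases summed per kb to 21717 ± 8364 in KO tumour-bearing, 11159 ± 4014 in WT tumour-bearing, 32642 ± 2658 in KO tumour-free and 33288 ± 9976 in WT tumour-free livers (SD, n = 3 each). Glucuronosyltransferases summed to 61387 ± 8772 in KO tumour-bearing, 53614 ± 7868 in WT tumour-bearing, 78476 ± 11551 in KO tumour-free and 76059 ± 14738 in WT tumour-free livers. Both sums were lowest on average with a tumour. Glutathione transferases summed to 92216 ± 6874 in KO tumour-bearing, 61021 ± 20287 in WT tumour-bearing, 76839 ± 10260 in KO tumour-free and 68036 ± 4158 in WT tumour-free livers. Their 3 WT tumour-bearing livers split, with replicate 2 at 84446 and replicates 1 and 3 at 49205 and 49413.

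**Figure D1:**
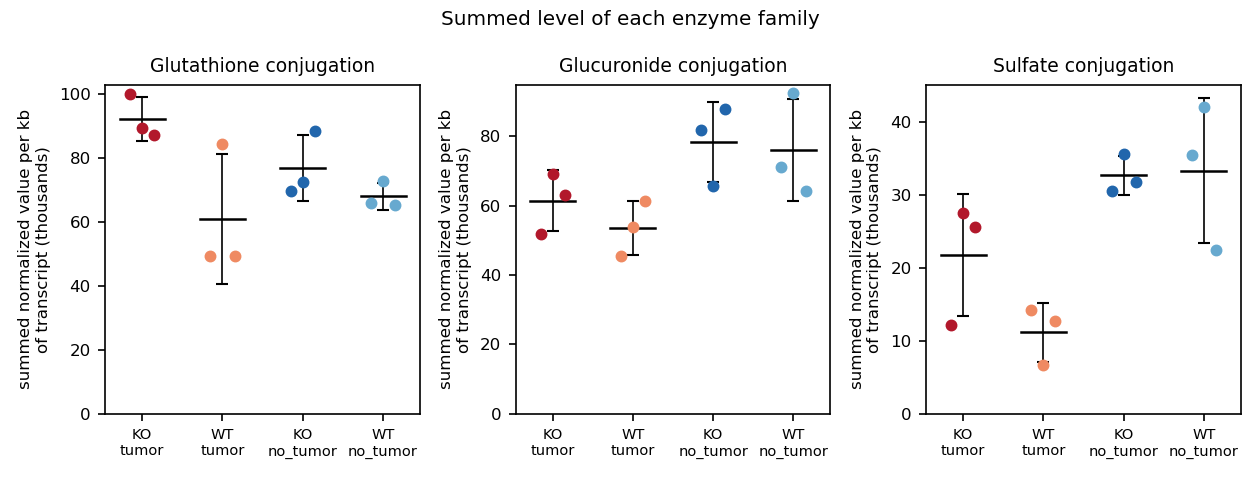
Summed normalized value per kilobase of transcript for each enzyme family (panels) in each liver (points), with the mean (line) and SD (bars) of the 3 livers of each group. The sulfotransferase sum averaged 11159 per kb in WT tumour-bearing livers and 33288 per kb in WT tumour-free livers, and the glutathione transferase sum was highest on average in KO tumour-bearing livers.

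In wild-type mice, the members that passed the test of tumour against none were Sult2a8 and Sult2a1, both lower with a tumour. Both are of the Sult2a genes that sulfate bile acids and hydroxysteroids. They were 2 of the 56 tested members, and no member passed as higher. Of all genes, 0.247% passed as lower, 0.432% as higher and 0.679% in either direction. Sult2a8 (ENSMUSG00000030378, chromosome 7, 14144611 to 14180694), a bile acid sulfotransferase of mouse liver, was listed at 5813, 1835 and 3256 in WT tumour-bearing livers, against 14484, 13477 and 11539.7 in WT tumour-free livers. Every tumour-bearing liver lay below every tumour-free liver, and the log2 change was −2.01 ± 0.37 (limma adjusted p = 0.0271). Sult2a1 (ENSMUSG00000078798, chromosome 7, 13530171 to 13571334) was at 1869, 299 and 924 in WT tumour-bearing livers, against 9194, 18839 and 5685 in WT tumour-free livers, also without overlap. Its log2 change was −3.63 ± 0.71 (limma adjusted p = 0.0356), and WT tumour-bearing replicate 2 was the lowest. Neither call held under every left-out library. With single WT libraries left out, Sult2a8 passed only without WT tumour-bearing replicate 1, and Sult2a1 only without WT tumour-free replicate 3. The Sult2a8 adjusted p reached 0.13 and the Sult2a1 adjusted p 0.172 at most, with log2 changes between −2.42 and −1.59 for Sult2a8 and between −4.24 and −2.92 for Sult2a1.

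The remaining Sult2a genes had negative estimates in wild-type mice but did not pass. Sult2a2 was at 1539, 1354 and 1072 in WT tumour-bearing livers, against 3420.4, 6541 and 2771 in WT tumour-free livers (−1.60 ± 0.39, limma adjusted p = 0.0986), with no overlap. Sult2a3 was at 80.7, 5.04 and 69.7 in WT tumour-bearing and 1985, 609.9 and 871 in WT tumour-free livers (limma adjusted p = 0.306). Sult2a4 was listed at 0 in all 3 WT tumour-bearing livers, against 12.5, 8.41 and 2.84 in WT tumour-free livers, a low gene for which no fold is given. Over all 56 tested members 48 log2 changes were negative and 8 positive, beside 49.6% and 50.4% of all genes. All 7 tested Sult2 genes had negative log2 changes, and the median over the 15 tested sulfotransferases was −1.45, beside 0.00 over all genes. Without WT tumour-bearing replicate 2 that median was −0.62, and without WT tumour-free replicate 1 it was −0.69. Sult1d1, which sulfates catecholamines in mice, was at 9212, 4713 and 11579.6 in WT tumour-bearing and 8509.9, 10628 and 7476 in WT tumour-free livers, and these groups overlapped.

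**Figure D2:**
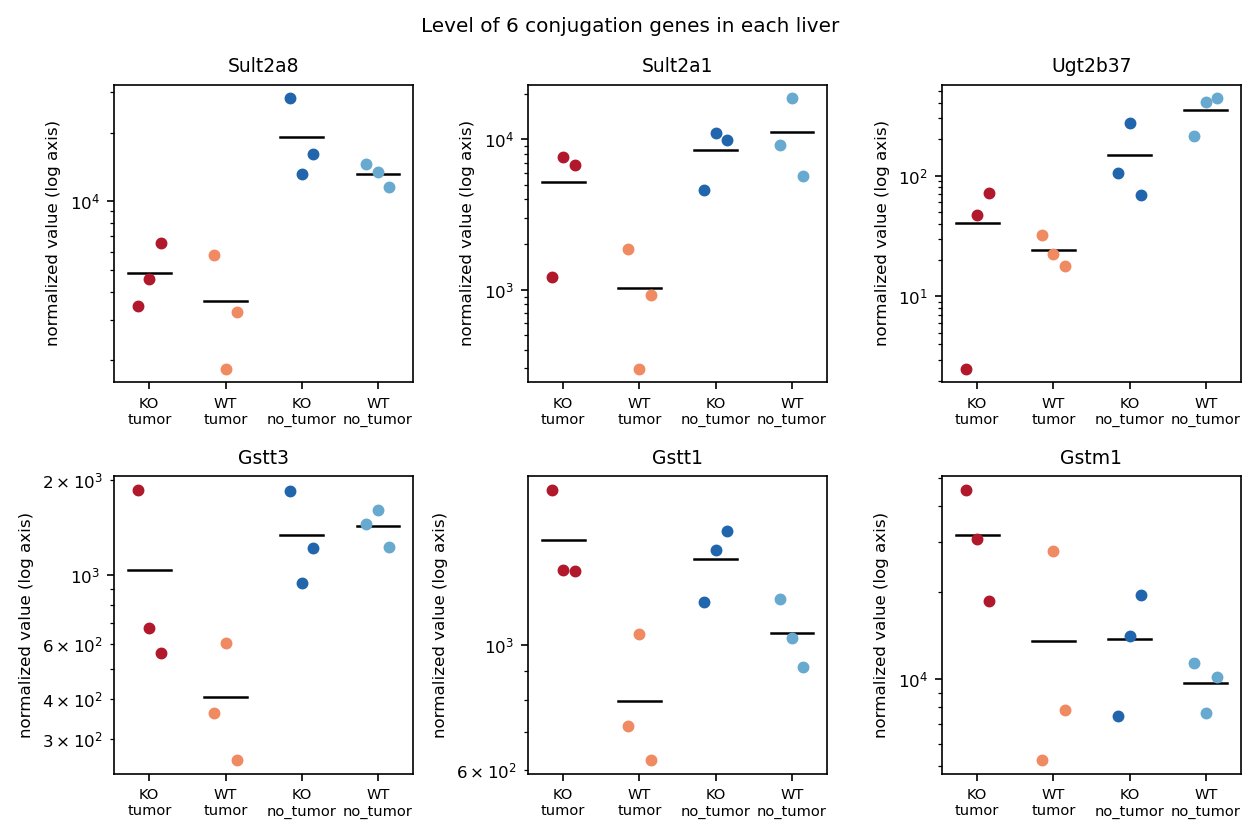
Normalized value (log axis) of 6 conjugation genes in each liver (points) by group, with the mean of 3 livers (line). Sult2a8 lay below its tumour-free values in every tumour-bearing liver of both genotypes, while Gstm1 spread from 18669 to 45452 in KO tumour-bearing livers and from 5255 to 27816 in WT tumour-bearing livers, the KO range overlapping that of KO tumour-free livers.

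No glucuronosyltransferase passed the test in this comparison. Ugt2b5, the most abundant, was at 27422, 36951 and 34130.3 in WT tumour-bearing livers, against 47791, 76402 and 43479 in WT tumour-free livers (−0.73 ± 0.29, limma adjusted p = 0.451). Ugt2b1 was at 7199, 7602 and 10881 in WT tumour-bearing livers, against 16605, 16766 and 13822 in WT tumour-free livers (−0.90 ± 0.27, limma adjusted p = 0.22). Ugt2b34 was at 13693, 18840.4 and 17349 in WT tumour-bearing livers, against 25147, 31945 and 22532 in WT tumour-free livers (−0.67 ± 0.25, limma adjusted p = 0.404). The tumour-bearing and tumour-free livers did not overlap in these 3 genes. Ugt1a9, whose reads cannot be separated fully from the other Ugt1a genes, was at 321, 1111 and 359.7 in WT tumour-bearing and 1321, 2408 and 1957 in WT tumour-free livers (−1.86 ± 0.49, limma adjusted p = 0.139). Ugt2b35 was at 10849, 14704 and 22403 in WT tumour-bearing and 9600.4, 17382 and 13372 in WT tumour-free livers, and these overlapped. Of 19 tested glucuronosyltransferases 17 had negative log2 changes, with a median of −0.70.

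No glutathione transferase passed in WT tumour-bearing livers. Their median log2 change was −0.33 over 22 tested genes, 18 of them negative. With single libraries left out the median ranged from −0.67 to 0.05, the highest without WT tumour-bearing replicate 1. Gstt3 (ENSMUSG00000001665, chromosome 10, 75609949 to 75617248), a theta class enzyme, was at 363, 606 and 256 in WT tumour-bearing livers, against 1445, 1606 and 1223 in WT tumour-free livers. The groups did not overlap, and the log2 change was −1.88 ± 0.41 (limma adjusted p = 0.0595). Mgst1 was at 35022, 36201 and 32372 in WT tumour-bearing and 43571, 52395 and 43626 in WT tumour-free livers, again without overlap (−0.43 ± 0.25, limma adjusted p = 0.709). At an unadjusted p under 0.05, 14 of the 56 members were lower and 1 higher, beside 4.18% and 4.49% of all genes. Groups did not overlap in 16 lower and 2 higher members, beside 8.05% and 9.46% of all genes.

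In knockout mice no member passed the test of tumour against none, and none of the 17380 genes did (0%). At an unadjusted p under 0.05, 7 members were lower and 3 higher, beside 7.58% and 5.13% of all genes. Sult2a8 was at 3455, 4524 and 6556 in KO tumour-bearing livers, against 28345, 13161 and 16024 in KO tumour-free livers. Every tumour-bearing liver again lay below every tumour-free one, with a log2 difference of −1.96 ± 0.37 (limma adjusted p = 0.218). Sult2a1 was at 1209, 7681 and 6747 in KO tumour-bearing and 4621, 10999 and 9846 in KO tumour-free livers, and the groups overlapped, with replicate 1 the one low tumour-bearing liver. Sult1d1 was at 4184, 7776 and 7301 in KO tumour-bearing livers, against 12505, 11628 and 9485 in KO tumour-free livers (−0.85 ± 0.31, limma adjusted p = 0.35). Log2 changes were positive in 26 and negative in 30 of the 56 members, beside 45.7% and 54.3% of all genes. The median was −0.55 over sulfotransferases, −0.42 over glucuronosyltransferases and 0.46 over glutathione transferases, beside −0.08 over all genes. Quantile normalization moved the median of all genes to 0.01 and gave 29 positive and 27 negative members, and rescaling to the same total gave 28 of each. Of 22 tested glutathione transferases 17 had positive values, among them Gstm2 at 1159, 1063 and 614 in KO tumour-bearing livers, against 401, 508 and 496 in KO tumour-free livers (0.97 ± 0.42, limma adjusted p = 0.375). Ugt2a3 was at 5481, 5944 and 6226 in KO tumour-bearing livers, against 9683, 6888 and 6796 in KO tumour-free livers. Ugt3a2 was at 19195, 26357 and 27198 in KO tumour-bearing livers, against 27425, 29004 and 27965 in KO tumour-free livers. Neither gene overlapped between these groups and neither passed, and they were among the 6 members that were lower without overlap, with Gstm2 the 1 that was higher, beside 9.48% and 7.34% of all genes.

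Averaged over both genotypes, tumour-bearing livers had 3 members lower and none higher past the test, beside 0.449% and 0.616% of all genes (1.06% in either direction). At an unadjusted p under 0.05, 15 were lower and 1 higher, beside 8.06% and 7.08%, and 37 log2 changes were negative and 19 positive, beside 53.2% and 46.8%. Sult2a8 fell by 1.98 ± 0.27 on the log2 scale (limma adjusted p = 0.00374) and passed with every single library left out. Sult2a1 fell by 2.31 ± 0.51 (limma adjusted p = 0.0434). Ugt2b37 (ENSMUSG00000057425, chromosome 5, 87388352 to 87402663), a low glucuronosyltransferase of the chromosome 5 cluster, fell by 3.11 ± 0.67 (limma adjusted p = 0.0406). Its values were 2.52, 47.6 and 71.8 in KO tumour-bearing and 32.4, 22.4 and 17.7 in WT tumour-bearing livers, against 105, 271 and 68.7 in KO tumour-free and 212, 407 and 439.7 in WT tumour-free livers. KO tumour-bearing replicate 1, the shallowest library, was the lowest, and the KO groups overlapped. Across the alternative settings the adjusted p reached at most 0.129 for Sult2a1 and 0.117 for Ugt2b37.

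**Figure D3:**
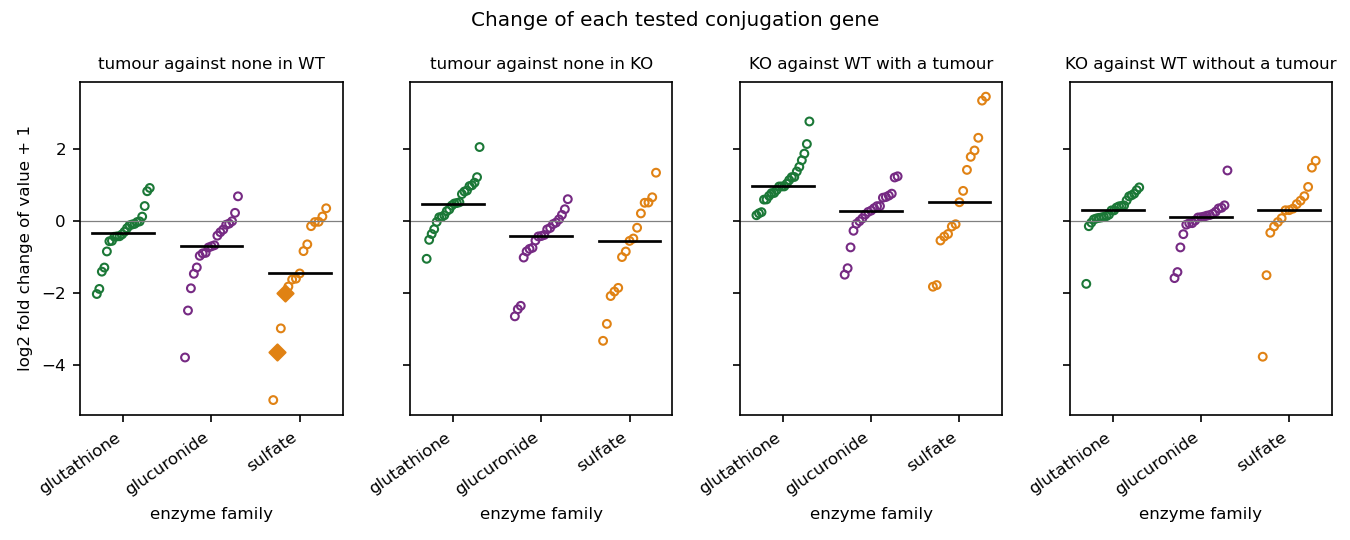
Log2 fold change of value + 1 of each tested member (points) by enzyme family in 4 comparisons between groups, with the family median (line) and members past the test as filled diamonds. The 2 diamonds are Sult2a8 and Sult2a1 in tumour against none in WT, and the glutathione transferase points lie above 0 in KO against WT with a tumour.

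Among tumour-bearing livers no member passed the test of KO against WT, beside 0.023% of all genes. At an unadjusted p under 0.05, 20 of the 56 members were higher and none lower, beside 6.31% and 8.13% of all genes. Of the 20, 11 were glutathione transferases, 5 glucuronosyltransferases and 4 sulfotransferases. Groups did not overlap in 12 members, all higher in KO, beside 8.11% of all genes higher and 9.8% lower. The log2 difference was positive in 43 and negative in 13 members, beside 42.8% and 57.2% of all genes. All 22 tested glutathione transferases had a positive log2 difference, with a median of 0.96, and so did 13 of 19 glucuronosyltransferases (0.29) and 8 of 15 sulfotransferases (0.52), beside a median of −0.12 over all genes. Quantile normalization moved the median of all genes to 0.01 and left all 22 glutathione transferases positive, with a median of 1.06.

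The WT tumour-bearing livers differed widely among themselves in Gstm1. Gstm1 (ENSMUSG00000058135, chromosome 3, 107919571 to 107925289), the most abundant cytosolic glutathione transferase here per kb, was at 45452, 30565 and 18669 in KO tumour-bearing livers, against 5255, 27816 and 7824 in WT tumour-bearing livers. WT tumour-bearing replicate 2 reached into the KO range, while replicates 1 and 3 lay far below it, and the log2 difference was 1.50 ± 0.52 (limma adjusted p = 0.241). Gstm6 was at 1598, 1201 and 1048 in KO tumour-bearing livers, against 286, 1091 and 369 in WT tumour-bearing livers (1.37 ± 0.41, limma adjusted p = 0.204), with the same WT liver high. That liver, WT tumour-bearing replicate 2, was also high in the summed 6 B and plasma cell markers, at 3543, against 367 and 380 in WT tumour-bearing replicates 1 and 3 and at most 1310.0 in any other liver, and their part in the Gstm values was not tested. Without WT tumour-bearing replicate 2, 5 members passed, Gsta3, Gsta4, Gstm1, Gstm6 and Gstt1, all higher in KO, and the glutathione median was 1.51. Of all 17380 genes, 210 then passed, 129 higher and 81 lower in KO, against 4 with all libraries. Without KO tumour-bearing replicate 1, 2 members passed, Sult2a3 and Sult2a5, beside 9 of all genes, and the glutathione median was 0.73.

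Some other glutathione transferases did not overlap between the genotypes with a tumour. Gstt1, a theta class enzyme, was at 1884, 1359 and 1349 in KO tumour-bearing livers, against 718, 1047 and 625 in WT tumour-bearing livers (0.96 ± 0.23, limma adjusted p = 0.149). Gsta3, an alpha class enzyme that detoxifies aflatoxin epoxide in mice, was at 15268, 13951 and 17375 in KO tumour-bearing livers, against 7635, 13764 and 8270.2 in WT tumour-bearing livers (0.70 ± 0.23, limma adjusted p = 0.22). Gstp3, of the pi class, was at 1078, 345 and 406 in KO tumour-bearing livers, against 117, 172 and 224 in WT tumour-bearing livers (1.68 ± 0.47, limma adjusted p = 0.18). In these 3 genes the groups did not overlap, and none passed the test. Gsta4, which acts on lipid aldehydes, was at 695, 423 and 141 in KO tumour-bearing and 49, 273 and 8.85 in WT tumour-bearing livers and overlapped. Gstz1, the isomerase of tyrosine breakdown, was at 7244, 6565 and 8854 in KO tumour-bearing and 5690.2, 10240.2 and 5181 in WT tumour-bearing livers, also overlapping.

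Sulfotransferases and glucuronosyltransferases split by gene between the genotypes with a tumour. Sult2a2 was at 2558, 6473 and 5460.1 in KO tumour-bearing livers, against 1539, 1354 and 1072 in WT tumour-bearing livers, with no overlap (1.78 ± 0.39, limma adjusted p = 0.134). Sult1c2 was at 749.6, 439 and 314 in KO tumour-bearing livers, against 117, 271 and 169 in WT tumour-bearing livers (1.42 ± 0.39, limma adjusted p = 0.172). Sult2a8 overlapped between these genotypes, with a difference of 0.52 ± 0.37 and a 95% interval of −0.28 to 1.32. Ugt3a1, which in humans uses N-acetylglucosamine in place of glucuronic acid, was at 1946, 3098 and 3291 in KO tumour-bearing livers, against 1772, 1884 and 1373 in WT tumour-bearing livers (0.70 ± 0.23, limma adjusted p = 0.224). Ugt3a2, its abundant neighbour on chromosome 15, was at 19195, 26357 and 27198 in KO tumour-bearing and 24814, 17441 and 32219 in WT tumour-bearing livers and overlapped.

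**Figure D4:**
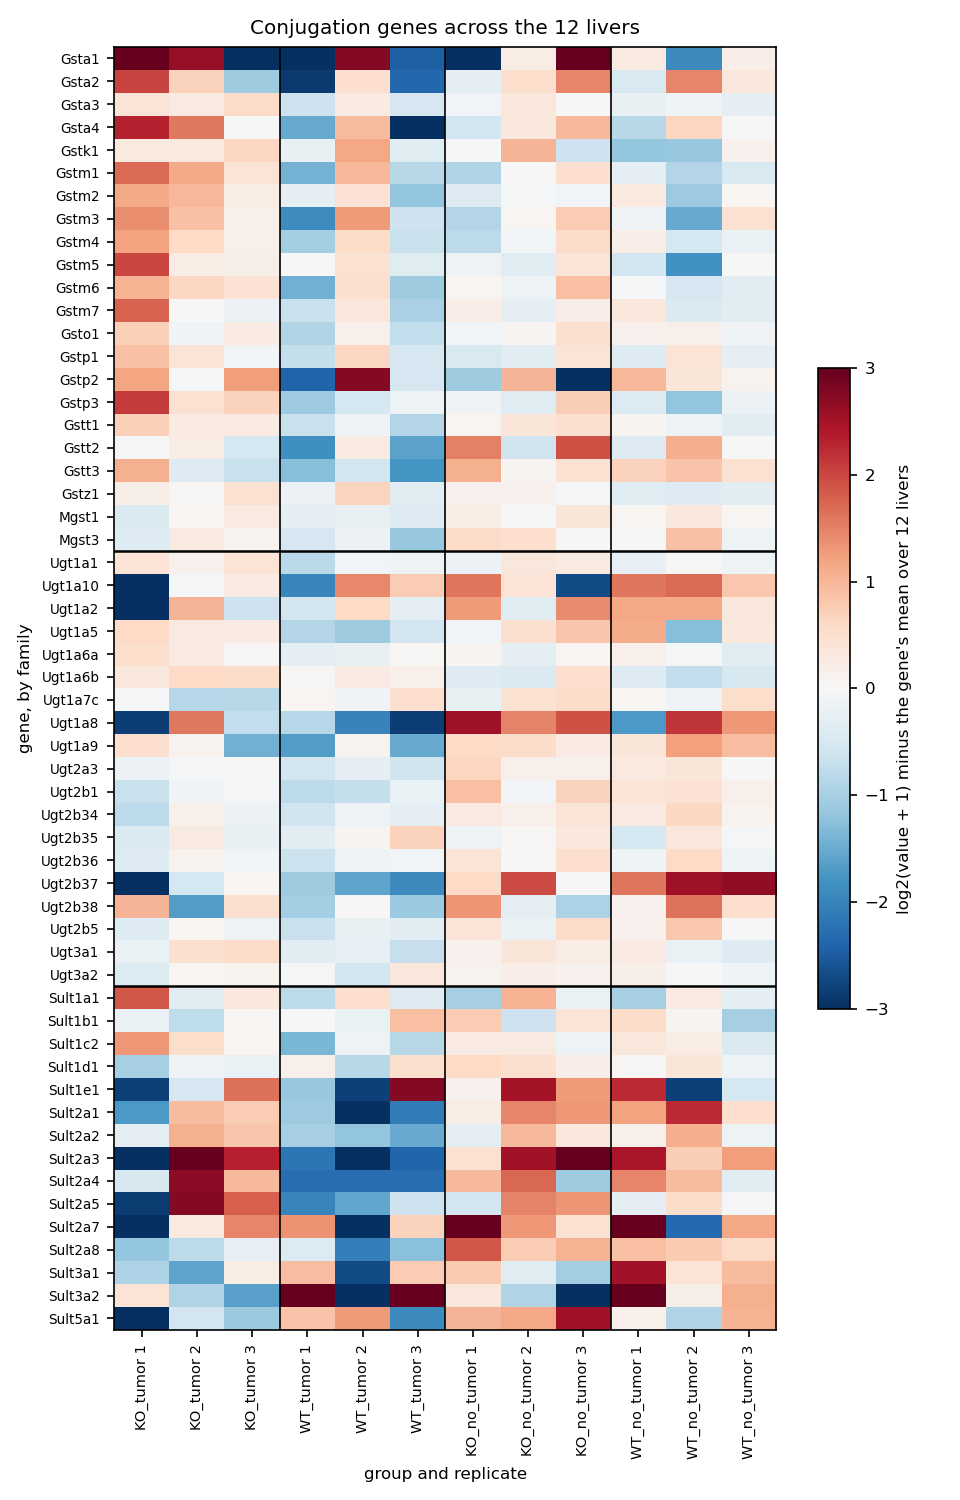
Log2(value + 1) of the 56 tested members minus each gene's mean over the 12 livers, with genes in rows by family (black lines part glutathione, glucuronide and sulfate conjugation) and livers in columns, on a colour scale that ends at 3 above and below. WT tumour-bearing replicate 2 shows Gstm and Gsta genes above their means, as KO tumour-bearing replicate 1 does, and KO tumour-bearing replicate 1 shows Sult2a genes below theirs.

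Without a tumour, no member passed the test of KO against WT, beside 0.00575% of all genes. At an unadjusted p under 0.05 no member was higher and 1 was lower, Sult3a2, beside 0.978% and 0.955% of all genes. Log2 differences were positive in 41 and negative in 15 members, beside 49% and 51% of all genes. Sult3a2 varied within groups, at 60.5, 24.8 and 0 in KO tumour-free and 713, 53.7 and 100.3 in WT tumour-free livers. Gsta3 was at 11042, 14728 and 11651 in KO tumour-free livers, against 9996, 10797 and 9513 in WT tumour-free livers (0.29 ± 0.23, limma adjusted p = 1). Gstz1 was at 7011, 6973 and 6214 in KO tumour-free livers, against 5029, 4931 and 5139 in WT tumour-free livers (0.42 ± 0.23, limma adjusted p = 1). These were the 2 members whose groups did not overlap, beside 3.56% of all genes higher and 4.37% lower. Sult2a8 was at 28345, 13161 and 16024 in KO tumour-free and 14484, 13477 and 11539.7 in WT tumour-free livers and overlapped. Averaged over tumour states, no member passed KO against WT either, beside 0.0115% of all genes, and 12 were higher and 1 lower at an unadjusted p under 0.05, beside 4.86% and 5.43%. On that average 44 log2 differences were positive and 12 negative, beside 43.3% and 56.7% of all genes.

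The test of whether the tumour difference itself depended on genotype passed for no member and for no gene (0%). At an unadjusted p under 0.05, 4 members had a more positive tumour difference in KO and none a more negative one, beside 1.96% and 2.74% of all genes. The value was positive in 42 and negative in 14 members, beside 45% and 55% of all genes. The 4 were Sult2a2 (1.81 ± 0.55), Sult2a1 (2.63 ± 1.01), Sult1c2 (1.34 ± 0.55) and Gstt3 (1.36 ± 0.59), each with a limma adjusted p of 0.859. For Sult2a8 this value was 0.05 ± 0.53, with a 95% interval of −1.09 to 1.19. The comparisons of tumour against none in WT and of KO against WT with a tumour share the WT tumour-bearing livers, so a low value there enters both.

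Of 91 tested genes around conjugation in 7 lists, 2 passed in any comparison. Of all genes, 0.679% passed in tumour against none in WT, where Onecut1 passed, and 1.06% averaged over genotypes, where Chac1 passed. Chac1, which cleaves glutathione in the cytosol, rose with a tumour averaged over genotypes (3.80 ± 0.79, limma adjusted p = 0.0387). It was at 126, 33.2 and 162 in KO tumour-bearing and 263, 155 and 339.8 in WT tumour-bearing livers, against 1.89, 30.1 and 1.32 in KO tumour-free and 3.39, 54.7 and 25.6 in WT tumour-free livers. Onecut1, a hepatocyte transcription factor, fell in WT tumour-bearing livers, at 668, 756 and 584, against 3752, 3708 and 2082 in WT tumour-free livers (−2.20 ± 0.44, limma adjusted p = 0.0378). It was at 393, 1380.1 and 1369 in KO tumour-bearing and 1680.0, 853 and 689 in KO tumour-free livers, which overlapped (−0.14 ± 0.44, limma adjusted p = 0.903), and the test of whether the difference depended on genotype did not pass (2.07 ± 0.62, limma adjusted p = 0.859). Without a tumour Onecut1 was lower in all KO than in all WT livers and did not pass (−1.62 ± 0.44, limma adjusted p = 1). In KO against WT with a tumour, the 10 other targets of NRF2, the factor that acts through the antioxidant response element, had a median of −0.13 with 4 positive. Their summed values went the other way, at 23159 to 24949 in KO tumour-bearing livers, against 15936 to 20728.5 in WT tumour-bearing livers. Their median was 0.39 in KO against WT without a tumour (8 positive), 0.52 in tumour against none in WT (8 positive) and 0.19 in tumour against none in KO (6 positive), and none of the 10 passed in any comparison. In KO against WT with a tumour the 13 transporters that export conjugates had a median of 0.28, the 12 genes of glutathione synthesis and recycling −0.10, the 14 of UDP-glucuronate and PAPS supply −0.18, the 14 other conjugating enzymes 0.27, the 5 hydrolases 0.41 and the 23 regulators 0.17, and none of these genes passed.

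Markers of other cells also differed between the groups. The 7 erythroid markers summed to between 2456 and 11915 in KO tumour-bearing, against 2469 to 4318 in KO tumour-free livers, and to between 6315 and 10552 in WT tumour-bearing livers, against 2167 to 4266 in WT tumour-free livers, with Alas2 past the test (1.60 ± 0.33, limma adjusted p = 0.0422). The 6 stellate markers summed to between 13302 and 16259 in KO tumour-bearing, against 10565 to 12223 in KO tumour-free livers, and to between 17258 and 21443 in WT tumour-bearing livers, against 10113 to 12768 in WT tumour-free livers, with Col3a1 (1.50 ± 0.25, limma adjusted p = 0.015) and Dcn (1.16 ± 0.20, 0.0184) past the test. The 8 neutrophil markers summed to 52 to 276 in KO tumour-bearing and 375 to 684 in WT tumour-bearing livers, against 93 to 152 in KO tumour-free and 70 to 240 in WT tumour-free livers, and none passed. Of these markers Mmp8 and Elane stayed under 1 in KO tumour-bearing livers, and Mpo and Ly6g in KO tumour-free livers. Averaged over genotypes, the endothelial marker Clec4g (0.90 ± 0.15, limma adjusted p = 0.0136) and the epithelial keratin Krt18, which hepatocytes also express (0.92 ± 0.20, limma adjusted p = 0.0406), rose with a tumour. Krt18 was on the list of mammary tumour epithelium, of whose 5 tested genes 2 were positive in that comparison. Their median was −0.03, and only Krt18 passed. Their sum, Krt18 included, was 4279 to 5448 in WT tumour-bearing and 2161 to 2893 in WT tumour-free livers. In KO it was 2629 to 5785 with a tumour and 2342 to 2741 without, and overlapped. The 6 endothelial markers summed to 9114.5 to 15122.5 in KO tumour-bearing and 6460 to 7657 in KO tumour-free livers. In WT they summed to 8634.5 to 10305 with a tumour and 4836 to 7332 without. The part of these cells in the conjugation values was not tested, and in whole liver fewer cells of a type and less RNA per cell cannot be told apart.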

How the data were processed

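RNA of 12 livers was depleted of ribosomal RNA and sequenced, per the labels' protocols. The authors deposited a signal per gene and library that its naming calls DESeq2-normalized, which scales each library by a size factor. STAR 2.7.8a, Partek and DESeq2, with build mm39, are named in the submitters' processing notes. Not given in the sources used here were the counting program, annotation release, strand use and any filter. In each library 76.9% to 82.9% of low values were whole reads within 0.01 reads, so no count model was run. All value columns matched a sample (0 unmatched). Coordinates are 1-based, with the end taken 1 base before the deposited stop, which lies 1 past the last base.

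Genes that reached 10 in 3 or more libraries (17380) were fitted with limma 3.58.1 in R 4.3.3 on log2(value + 1), with 4 groups in 1 fit, 7 comparisons and Benjamini-Hochberg adjustment at 0.05. The fit was tested on simulated data. Levels per kb used the longest protein-coding GENCODE M21 transcript. Named genes were every member past the test, the 4 most abundant of each family, up to 6 per comparison by smallest p if their mean reached 50 (without group overlap for pairs of groups), list genes past the test, and Mtdh. Sult2a3, Sult2a4, Sult2a5 and Sult3a2, and genes shown for counts or promoters, were named after their values were seen. Members and lists were chosen with earlier results of these data known. Alternatives changed the pseudocount, filter, scaling, gene set, variance model, library weights, replicate block and the libraries used. A p-value here sets a difference between group means against the spread between mice within groups, as limma estimates it.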

Additional observations from a re-analysis of the deposited data

How the results depend on the processing

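Of the member log2 changes chosen by the naming rule, none changed sign under an alternative, but values near 0 did. The median of all genes in tumour against none in KO, −0.08 as reported, was 0.01 with library weights and 0.04 without KO tumour-bearing replicate 1. Without KO tumour-free replicate 1 the glucuronosyltransferase median in KO against WT without a tumour was −0.03, against 0.11 as fitted. Members past the test in KO against WT with a tumour numbered 0 as reported, 18 with library weights, 2 without both libraries that stood apart in depth or small RNA content (KO tumour-bearing replicate 1 and KO tumour-free replicate 3), and 0 to 5 with single libraries left out. Of all 17380 genes, 4, 1664, 9 and 2 to 210 passed in the same order. In tumour against none in WT the members past the test numbered 2 as reported, 9 with library weights, 4 with a pseudocount of 10, 4 with quantile normalization, 1 with robust eBayes, 6 without both libraries that stood apart, 6 with the comparison's 6 libraries alone, and 0 to 6 with single libraries left out. Of all 17380 genes, 118, 510, 150, 147, 118, 212, 136 and 12 to 205 passed in the same order. No member passed there without WT tumour-free replicate 1 or 2 or WT tumour-bearing replicate 3. In KO against WT averaged over tumour states the members past the test numbered 0, and 5 with library weights, beside 2 and 139 of all genes. In tumour against none averaged over genotypes the members numbered 3, 10 with library weights, and 1 to 5 with single libraries left out. Beside them, 185, 856 and 47 to 361 of all genes passed. Leaving out KO tumour-bearing replicate 1 and WT tumour-bearing replicate 2 together, an alternative chosen after seeing the data, gave 6, 7, 2 and 5 members in these 4 comparisons. Of all genes it gave 135, 257, 32 and 197. The sulfotransferase median in WT was −0.80 with a pseudocount of 10, −0.62 in that added alternative, and −1.70 to −0.62 with single libraries left out, and the glutathione transferase median in KO against WT with a tumour was 0.71 to 1.51. The cause of these shifts was not tested. With the replicate number as a block, 3 members passed in WT (Gstt3, Sult2a2 and Sult2a8) and 2 averaged over genotypes (Sult2a8 and Ugt2b37), against 2 and 3 without it. Of all genes, 89 and 137 passed with the block. Correlations of the deviations of 18 same-numbered pairs lay between −0.094 and 0.1. Pairs with different numbers were not set beside them, so the check cannot exclude a pairing. Of the values of single genes under the alternatives, 770 kept their side of the threshold, 34 lost it and 52 gained it. Low depth in KO tumour-bearing replicate 1 limits the low genes most.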

Other observations

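The 3 pseudogenes with matching symbols were low. Sult2a-ps2 was listed at 9.86, 20.2 and 16.4 in KO tumour-bearing and 26.7, 12.2 and 13.3 in WT tumour-bearing livers, against 35.9, 18.8 and 76.3 in KO tumour-free and 62.6, 64.1 and 40.7 in WT tumour-free livers. In wild-type mice its tumour-bearing livers all lay below the tumour-free ones, and in knockout mice the groups overlapped. Sult2a-ps1 stayed at or under 40.3 and Gstm2-ps1 at or under 7.62 in every liver.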
